A study of Rattus norvegicus with 21 samples.

Results

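The comparison set NBTII-FGFR1 cells against their parental NBTII cells late in a time course of FGF1. It used the 4 NBTII-FGFR1 arrays and the 4 NBTII arrays of 24 h and 48 h, 2 per line and time, which are 8 of the 21 arrays in all. NBTII is an epithelial line from a rat bladder carcinoma, and NBTII-FGFR1 is the same line after transfection with FGF receptor 1. The cells of all 8 arrays had received FGF1 at 20 ng/ml together with heparin, and no array at 24 h or 48 h lacked FGF1, so the comparison is between lines under ligand and not between treated and untreated cells. The labels give neither the vector nor whether NBTII-FGFR1 is a single clone or a pool, and a difference between the lines therefore includes whatever else separates them. The labels also do not say whether the 2 arrays of a group came from separate cultures, and a p-value here then covers array-to-array spread that may be technical only. The arrays were Affymetrix rat expression arrays with RMA signals on a log2 scale, and the line difference was taken at each time as NBTII-FGFR1 minus NBTII and averaged over the 2 times.

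FGF receptors are receptor tyrosine kinases that bind FGF1 together with heparan sulfate and signal through the Ras and ERK pathway to transcription factors of the ETS and AP-1 families. The pathway induces its own brakes, among them the Sprouty proteins and the dual-specificity phosphatases that remove phosphate from ERK. In carcinoma cells, sustained ERK signalling is known for cell scattering, loss of epithelial order and the release of matrix metalloproteinases, secreted or membrane-bound enzymes that cut the extracellular matrix.

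The 8 arrays had medians of 6.15 to 6.20, and within a group the correlation across probe sets was r = 0.995 to 0.997. Among the other 13 arrays, the library labelled NBTII-FGFR1 0 h replicate 1 read 3.57 for Fgfr1, against 5.92 in its partner and 3.97 in the NBTII array of 0 h. Over all probe sets that partner was its closest match (r = 0.995). The closest match of NBTII-FGFR1 2 h replicate 1 was NBTII 0.5 h replicate 1. The second replicates of 2 h of both lines were each other's closest match (r = 0.993). The libraries labelled NBTII-FGFR1 0 h replicate 1 and 2 h replicate 1 entered the comparison of 24 and 48 h only through the common estimate of the spread, and counts are given with and without them. The epithelial genes Epcam (10.2 to 10.7) and Cdh1 (7.75 to 8.42) were well above the lower quartile of the arrays. Krt19 lay below the lower quartile in all 8 arrays and the urothelial uroplakin markers were not measured under a single symbol. Of 20 markers of fibroblasts, leukocytes and endothelium that were measured, 11 lay below the lower quartile in all 8 arrays and 0 differed between the lines. The log2 of their summed signal spanned 7.17 to 7.27 in NBTII-FGFR1 and 7.28 to 7.46 in NBTII for fibroblasts, 7.53 to 7.62 and 7.58 to 7.67 for leukocytes, and 5.65 to 5.78 and 5.83 to 5.99 for endothelium. The lower quartile itself was 4.37 to 4.41 in the NBTII-FGFR1 arrays and 4.48 to 4.49 in the NBTII arrays. The table has no detection calls, so signal at or under that quartile may be background. A difference from such a level is best read as a lower bound.

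Averaged over 24 and 48 h, 1815 of 15866 probe sets differed between the lines (11.4%), 995 higher (6.27%) and 820 lower (5.17%) in NBTII-FGFR1, at an adjusted p below 0.05 in limma. They carried 1435 gene symbols, and the median difference over all probe sets was -0.05. The largest differences were mostly upward: of 128 probe sets that differed by at least 1 on the log2 scale (0.807%), 105 were higher and 23 lower. The 4 NBTII-FGFR1 arrays lay entirely above or below the 4 NBTII arrays at 2485 probe sets (15.7%), 987 above (6.22%) and 1498 below (9.44%), and 1099 of the 1815 were among them. Direction went with signal level: in the dimmest quartile of the probe sets 18 were higher and 76 lower, and in the brightest quartile 406 were higher and 304 lower. The part that the lower quartile of the NBTII-FGFR1 arrays has in the lower calls was not tested. Without these 2 NBTII-FGFR1 libraries of 0 h and 2 h the count was 2203, and with only the 8 arrays of 24 and 48 h in the fit it was 3172. Leaving out 1 array gave 795 (NBTII-FGFR1 48 h replicate 1), 865 (NBTII-FGFR1 24 h replicate 2), 887 (NBTII 48 h replicate 1), 1090 (NBTII 24 h replicate 1), 1111 (NBTII-FGFR1 48 h replicate 2) or 1162 (NBTII 24 h replicate 2), and 1275 or more without either of the others.

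**Figure D1:**
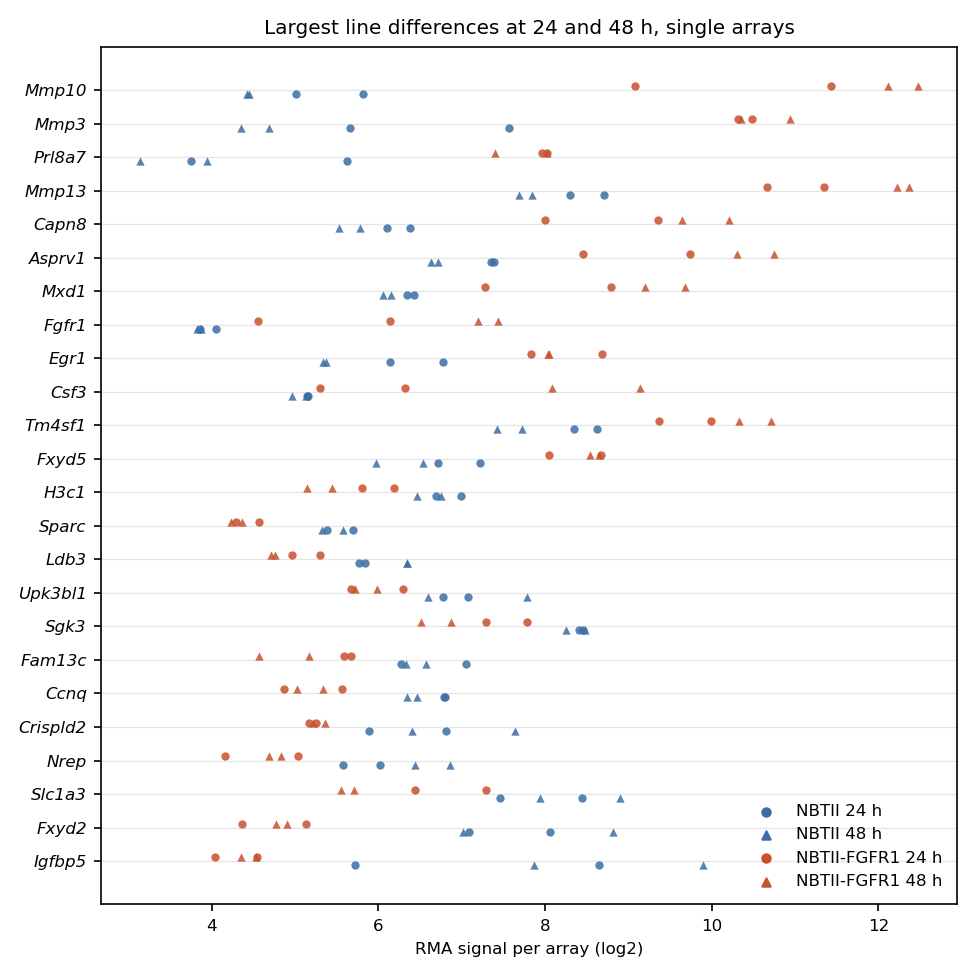
RMA signal (log2, x axis) of the 12 genes with the largest positive and the 12 with the largest negative line difference over 24 and 48 h, for each of the 8 arrays (circles 24 h, triangles 48 h, blue NBTII, orange NBTII-FGFR1). In each row the colours do not overlap, which the choice of these genes required; Mmp10 lies between 4.42 and 5.82 in NBTII and between 9.08 and 12.48 in NBTII-FGFR1, and Igfbp5 between 5.72 and 9.89 in NBTII and between 4.04 and 4.54 in NBTII-FGFR1.

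The transfected receptor was the first check of the labels. Fgfr1 (1387498_a_at) read 3.86 and 4.05 at 24 h and 3.82 and 3.87 at 48 h in NBTII, against 4.56 and 6.14 and 7.44 and 7.20 in NBTII-FGFR1. The NBTII values all lay below the lower quartile of their arrays, and NBTII-FGFR1 24 h replicate 1 came nearest to them, while the 3 other NBTII-FGFR1 arrays were far above. Over both times Fgfr1 was higher by 2.43 ± 0.40 (SE, 4 arrays against 4), with an adjusted p of 0.00185. A second Fgfr1 probe set (1372447_at) differed by -0.09 ± 0.08, with an adjusted p of 0.50, and the sources used here do not say which stretch of the transcript each one reads.

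No other FGF receptor gene passed the threshold at its brightest probe set. Fgfr2, which encodes the receptor form that epithelial cells commonly use, read 7.01 and 7.20 at 24 h and 7.16 and 7.15 at 48 h in NBTII, against 7.49 and 6.29 and 6.33 and 6.36 in NBTII-FGFR1. This is a difference of -0.51 ± 0.21 that did not pass the threshold (adjusted p = 0.123), although it did without NBTII-FGFR1 24 h replicate 1 (-0.81, adjusted p = 0.0069). In addition, 1 of the 4 other Fgfr2 probe sets was lower (1375129_at, -0.33). Fgfr3 differed by -0.31 ± 0.11 and Fgfr4 by -0.04 ± 0.08, neither past the threshold in the common fit. Among the 13 measured FGF receptors and coreceptors, 2 were higher, Fgfr1 and Sdc1, and 2 were lower, Sdc4 (difference -0.62 ± 0.13) and Hspg2 (-0.40 ± 0.11). Over all probe sets 6.27% were higher and 5.17% lower. Sdc1, Sdc4 and Hspg2 encode syndecan-1, syndecan-4 and perlecan, proteoglycans whose heparan sulfate chains hold FGF at its receptor. Sdc1 read 11.30 and 10.99 at 24 h and 11.25 and 11.25 at 48 h in NBTII, against 11.82 and 11.88 and 12.35 and 12.31 in NBTII-FGFR1, so the 4 NBTII-FGFR1 arrays all exceeded the NBTII arrays, by 0.89 ± 0.08 (adjusted p = 2.16e-05). The Hspg2 call was lost without NBTII-FGFR1 24 h replicate 2, NBTII-FGFR1 48 h replicate 1, NBTII 24 h replicate 1 or NBTII 48 h replicate 1.

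The 2 largest differences of the whole array were in genes of matrix-degrading enzymes. Mmp10, the gene of the secreted proteinase stromelysin-2, read 5.01 and 5.82 at 24 h and 4.42 and 4.45 at 48 h in NBTII, against 9.08 and 11.44 and 12.48 and 12.12 in NBTII-FGFR1. In the NBTII arrays of 48 h it was below the lower quartile of the array, so its difference of 6.35 ± 0.46, an 81.8-fold ratio, is a lower bound (adjusted p = 3.28e-06). Mmp3, the gene of stromelysin-1, read 5.66 and 7.56 at 24 h and 4.36 and 4.69 at 48 h in NBTII, against 10.31 and 10.49 and 10.94 and 10.35 in NBTII-FGFR1. It was higher by 4.96 ± 0.31 (adjusted p = 8.92e-07), again with no overlap between the lines, although the 24 h NBTII arrays were unlike each other. Mmp13, the gene of collagenase-3, read 8.30 and 8.70 at 24 h and 7.69 and 7.85 at 48 h in NBTII, against 10.67 and 11.34 and 12.37 and 12.22 in NBTII-FGFR1. Its NBTII arrays were well above the lower quartile, and it was higher in NBTII-FGFR1 by 3.52 ± 0.37, an 11.5-fold ratio (adjusted p = 0.000105). In each of these genes the 48 h arrays of NBTII were below its 24 h arrays.

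The promoters of these genes are shown because Mmp10, Mmp3 and Mmp13, 3 of the 4 largest positive differences, have their start sites close together on rat chromosome 8, and because AP-1 is a known end point of the ERK pathway. The windows are RefSeq sequence of build GRCr8, 250 bases up to the gene's start on the plus strand. Capitals mark the AP-1 type motif TGANTCA, which reads the same on both strands. The motif, and Mmp12 and Capn8 as further examples, were chosen after the values had been seen. Mmp10 (chr8:12974457-12974706) holds it 61 bases before the start, Mmp3 (chr8:12925031-12925280) 71, Mmp13 (chr8:12782579-12782828) 66, Mmp12 (chr8:12866402-12866651) 87 and Capn8 (chr13:96784487-96784736) 106.
Mmp10: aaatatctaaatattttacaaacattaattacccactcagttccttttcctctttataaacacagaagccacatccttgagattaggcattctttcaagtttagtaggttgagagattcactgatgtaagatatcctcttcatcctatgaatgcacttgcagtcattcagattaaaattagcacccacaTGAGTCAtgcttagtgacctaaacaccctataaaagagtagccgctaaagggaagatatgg
Mmp3: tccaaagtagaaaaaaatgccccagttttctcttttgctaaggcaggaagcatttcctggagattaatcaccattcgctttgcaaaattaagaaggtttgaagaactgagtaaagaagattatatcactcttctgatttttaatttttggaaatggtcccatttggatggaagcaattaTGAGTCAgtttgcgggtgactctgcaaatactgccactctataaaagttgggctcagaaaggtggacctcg
Mmp13: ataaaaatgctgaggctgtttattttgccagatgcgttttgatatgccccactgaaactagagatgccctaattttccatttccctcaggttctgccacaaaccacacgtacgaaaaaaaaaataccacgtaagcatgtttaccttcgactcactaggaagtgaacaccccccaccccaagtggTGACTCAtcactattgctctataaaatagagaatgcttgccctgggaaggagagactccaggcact
Mmp12: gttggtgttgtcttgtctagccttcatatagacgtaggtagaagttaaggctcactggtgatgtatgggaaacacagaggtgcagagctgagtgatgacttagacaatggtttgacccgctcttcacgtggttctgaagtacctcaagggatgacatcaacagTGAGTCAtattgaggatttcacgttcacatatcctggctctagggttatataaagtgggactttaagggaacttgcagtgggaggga
Capn8: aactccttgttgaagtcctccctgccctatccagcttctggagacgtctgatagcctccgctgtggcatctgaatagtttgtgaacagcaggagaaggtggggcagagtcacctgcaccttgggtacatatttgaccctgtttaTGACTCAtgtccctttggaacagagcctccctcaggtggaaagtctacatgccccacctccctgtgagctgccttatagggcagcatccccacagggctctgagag

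Over the 300 bases from 250 before to 50 after the start, the motif stood in 2453 of 33469 promoters (7.33%), and in 509 of the 8580 measured genes that matched a promoter by symbol (5.93%). Of the genes higher by at least 1, 72 matched a promoter and 13 held the motif (18.1%), among them Il1a, Lama3, Abcb1a and Procr. Of those lower by at least 1, 10 matched a promoter and 1 held it (10%). Among the 12 largest positive differences, 10 matched a promoter and only 4 held the motif, Mmp10, Mmp3, Mmp13 and Capn8. The promoters printed above are thus examples that hold it. Of all genes that were higher it stood in 44 of 666 (6.61%), and of all that were lower in 38 of 538 (7.06%). These shares are a description of the windows, with no test, and a match is not a binding site.

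Of all 33 measured genes of pericellular proteolysis 11 were higher and 2 lower, with a median difference of 0.17. Over all probe sets 6.27% were higher and 5.17% lower, with a median of -0.05. Besides the 3 above, the higher members were Mmp12 (1.42), which encodes an elastase, the membrane-bound collagenase activator Mmp14 (0.65), the gelatinase Mmp9 (0.84), the lysosomal cathepsins Ctsl (1.39) and Ctsb (0.40), the sheddase Adam10 (0.59), the urokinase receptor Plaur (0.90) and the protease inhibitor Serpine2 (0.91). Lower were Spint2 (-0.37), which encodes an inhibitor of matriptase-like proteases, and Mmp11 (-0.27). Plau, the gene of urokinase itself, differed by 0.27 ± 0.18 and did not pass the threshold (adjusted p = 0.345). A second Plaur probe set (1371286_at) differed by 0.08 and did not pass either (limma, adjusted p = 0.84). The Plaur call was lost on leaving out any of 7 of the 8 arrays, the exception being NBTII-FGFR1 24 h replicate 1, and the Mmp9 call without NBTII-FGFR1 24 h replicate 2, NBTII-FGFR1 48 h replicate 1, NBTII 24 h replicate 2 or NBTII 48 h replicate 1. The count of higher members was 7 without NBTII-FGFR1 48 h replicate 1.

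Other proteases and surface proteins stood beside the metalloproteinases among the 12 largest positive differences. Capn8, the gene of a calpain of the stomach lining, read 6.11 and 6.38 at 24 h and 5.77 and 5.52 at 48 h in NBTII, against 7.99 and 9.35 and 10.21 and 9.64 in NBTII-FGFR1. It was higher by 3.35 ± 0.24 (adjusted p = 3.28e-06), and its second probe set by 2.36. Asprv1, which encodes a skin protease that processes filaggrin, read 7.35 and 7.39 at 24 h and 6.72 and 6.63 at 48 h in NBTII, against 8.46 and 9.74 and 10.74 and 10.31 in NBTII-FGFR1. The NBTII-FGFR1 arrays all exceeded the NBTII arrays, by 2.79 ± 0.28 on average (adjusted p = 9.29e-05). Prl8a7, a member of the placental prolactin family, read 3.75 and 5.62 at 24 h and 3.14 and 3.94 at 48 h in NBTII, against 7.97 and 8.02 and 8.02 and 7.40 in NBTII-FGFR1, a difference of 3.74 ± 0.46 from NBTII levels near or below the lower quartile in 3 arrays. Tm4sf1, which encodes a tetraspanin-related surface protein, read 8.34 and 8.62 at 24 h and 7.42 and 7.72 at 48 h in NBTII, against 9.36 and 9.99 and 10.71 and 10.32 in NBTII-FGFR1. It was higher by 2.07 ± 0.22, a 4.2-fold ratio, and Fxyd5, the gene of a sodium pump modulator known to weaken cell adhesion, by 1.86 ± 0.31. Mxd1, whose product competes with MYC for the partner MAX, read 6.34 and 6.42 at 24 h and 6.05 and 6.15 at 48 h in NBTII, against 7.28 and 8.79 and 9.67 and 9.20 in NBTII-FGFR1, a difference of 2.49 ± 0.36 (adjusted p = 0.000753).

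Genes induced by FGF and ERK signalling were the list with the largest share of differing members. Of 12 measured members 8 were higher and 1 lower, with a median difference of 1.07. Over all probe sets 6.27% were higher and 5.17% lower, with a median of -0.05. Spry2, the gene of a Sprouty inhibitor, read 6.05 and 6.05 at 24 h and 5.61 and 5.72 at 48 h in NBTII, against 6.83 and 7.21 and 7.78 and 7.72 in NBTII-FGFR1. The arrays of each group lay close together, and the difference of 1.53 ± 0.09 had a small standard error (adjusted p = 8.92e-07). Dusp5, a nuclear ERK phosphatase, read 8.09 and 8.39 at 24 h and 7.31 and 7.79 at 48 h in NBTII, against 8.71 and 9.72 and 10.27 and 10.01 in NBTII-FGFR1, which is a difference of 1.78 ± 0.24. Egr1, an immediate-early transcription factor, read 6.14 and 6.78 at 24 h and 5.33 and 5.37 at 48 h in NBTII, against 7.83 and 8.68 and 8.04 and 8.05 in NBTII-FGFR1, a difference of 2.24 ± 0.32. In all 3 genes every NBTII-FGFR1 array exceeded every NBTII array. The remaining higher members were Phlda1 (1.85), the EGF receptor inhibitor Errfi1 (1.32), the stress response gene Ier3 (1.14), the AP-1 subunit Fosl1 (1.002) and the cytoplasmic ERK phosphatase Dusp6 (0.60). Spry1, the second Sprouty gene of the list, went the other way (-0.90, adjusted p = 0.00679), and Ccnd1, Dusp4 and Myc did not pass the threshold. Fosl1 read 9.59 and 9.89 at 24 h and 8.91 and 9.50 at 48 h in NBTII, against 10.44 and 10.57 and 10.43 and 10.45 in NBTII-FGFR1, so the 48 h NBTII arrays were below those of 24 h, and the 4 NBTII-FGFR1 arrays lay close together above both. At 1 of the 3 Dusp6 probe sets (1377064_at) the difference was -0.07 and not past the threshold, whereas the 2 others were higher.

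Of 37 measured growth factors and receptor kinases 7 were higher and 2 lower, 28 did not pass the threshold, and the median difference was 0.02, against 6.27% higher, 5.17% lower and a median of -0.05 over all probe sets. Areg (1.48), Hbegf (1.26), Nrg1 (0.997) and Tgfa (0.60) among the 7 encode ligands of the EGF receptor family. The others were Kitlg (1.61), the ligand of KIT, Vegfa (0.72) and the ephrin receptor Epha2 (0.65), and the lower ones Tgfbr3 (-0.40) and Mdk (-0.37). Areg, the gene of amphiregulin, read 10.22 and 10.73 at 24 h and 8.99 and 9.22 at 48 h in NBTII, against 10.78 and 11.46 and 11.58 and 11.24 in NBTII-FGFR1. The lowest NBTII-FGFR1 array was just above the highest NBTII array, the separation being wide at 48 h and narrow at 24 h. Kitlg read 6.11 and 6.08 at 24 h and 6.45 and 6.01 at 48 h in NBTII, against 7.01 and 7.81 and 8.04 and 8.20 in NBTII-FGFR1, which is wide at both times (difference 1.61 ± 0.18, adjusted p = 0.000198). Of its 2 other probe sets 1 was higher (1.03) and 1 (1388096_at, 0.20) did not pass the threshold.

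Among 29 measured cytokines, chemokines and NF-kB targets, 7 were higher and 1 was lower, and the median difference was 0.06. Over all probe sets 6.27% were higher and 5.17% lower. Csf3, the gene of the granulocyte colony-stimulating factor, read 5.14 and 5.16 at 24 h and 5.13 and 4.96 at 48 h in NBTII, against 5.30 and 6.32 and 9.13 and 8.08 in NBTII-FGFR1. Replicate 1 of 24 h in NBTII-FGFR1 lay little above NBTII, replicate 2 clearly above and the 48 h arrays far above, with a mean difference of 2.11 ± 0.29 (adjusted p = 0.000533). Il24, an interleukin of the IL-10 family, read 5.33 and 5.85 at 24 h and 4.94 and 4.97 at 48 h in NBTII, against 5.34 and 7.27 and 8.93 and 7.84 in NBTII-FGFR1. Its lines overlapped, since the lower NBTII-FGFR1 array of 24 h lay between the NBTII arrays of that time, while the mean difference of 2.07 ± 0.35 passed the threshold (adjusted p = 0.00212). Also higher were Il1a (1.47), the prostaglandin synthase Ptgs2 (1.14), the IL-1 receptor antagonist Il1rn (1.01), Cxcl16 (0.64) and Nfkb2 (0.52), and Cx3cl1 was lower (-0.61). When only probe sets at or above the median signal were tested, 3 of the 7 were counted, since the others were dimmer or missed the threshold.

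The counts for genes of cell junctions and of the mesenchymal state were 0 to 2 per list, to be read against 6.27% higher and 5.17% lower over all probe sets. Of 14 adherens and tight junction genes 1 was higher, of 7 desmosome genes 1 was higher, and of 33 mesenchymal and matrix genes 0 were higher and 2 lower. At 48 h alone 1 mesenchymal gene was higher, Zeb1 (0.70, limma, adjusted p = 0.030), and 0 were lower. Of the desmosome genes 1 was then higher and 1 lower, Jup (-0.47, adjusted p = 0.041). Over all probe sets 4.75% were higher and 3.71% lower at 48 h. Cdh1, the gene of E-cadherin, read 8.42 and 7.94 at 24 h and 8.37 and 7.82 at 48 h in NBTII, against 8.23 and 7.75 and 8.09 and 7.80 in NBTII-FGFR1. The arrays of both lines covered the same range, and the difference of -0.17 ± 0.18 did not pass the threshold (adjusted p = 0.563). Nor did those of Dsp (-0.16 ± 0.10) and Jup (-0.18 ± 0.09), which encode desmosomal plaque proteins, of Cdh2 (-0.09 ± 0.08), the gene of N-cadherin, of Snai1 (-0.20 ± 0.11), a repressor of E-cadherin, or of Fn1 (-0.14 ± 0.19), the gene of fibronectin. Cdh2 lay below the lower quartile in all 8 arrays, as did 11 of the 33 mesenchymal and matrix genes in all, and their signal may be background. Vim, the gene of the mesenchymal filament vimentin, read 8.04 and 8.90 at 24 h and 7.51 and 7.995 at 48 h in NBTII, against 9.82 and 9.81 and 8.47 and 8.80 in NBTII-FGFR1. At each time the NBTII-FGFR1 arrays lay above the NBTII arrays, but the standard error was large and the difference of 1.11 ± 0.51 missed the threshold (adjusted p = 0.172). It passed with only the 8 arrays in the fit (adjusted p = 0.0024). Dsc2, the gene of a desmosomal cadherin, was higher (0.73), as was Ctnna1 (0.32), whose call was lost without any 1 of the arrays other than NBTII-FGFR1 24 h replicate 1.

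Sparc, the gene of a secreted matrix-associated glycoprotein, was lower at both of its probe sets. The brighter one (1367563_at) read 7.63 and 7.87 at 24 h and 7.56 and 7.62 at 48 h in NBTII, against 6.84 and 6.49 and 6.77 and 6.69 in NBTII-FGFR1, a difference of -0.97 ± 0.21 with no overlap. The other (1367562_at) differed by -1.13 ± 0.26, a call that was lost without NBTII-FGFR1 24 h replicate 2, NBTII-FGFR1 48 h replicate 1 or NBTII 24 h replicate 2. The second lower matrix gene, Col6a2 (-0.27 ± 0.08), lost its call without each of the 8 arrays in turn.

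Of 12 measured keratins 1 was lower (8.33%, against 5.17% over all probe sets) and 0 were higher. Krt5, the keratin of basal epithelial cells, read 11.34 and 10.80 at 24 h and 11.25 and 10.82 at 48 h in NBTII, against 11.37 and 10.41 and 8.97 and 9.21 in NBTII-FGFR1. At 24 h the lines overlapped, with a difference of -0.17, and at 48 h NBTII-FGFR1 was lower by nearly the same amount in both arrays, with a difference of -1.94. The mean of -1.06 ± 0.18 passed the threshold (adjusted p = 0.00216), and the change of the difference between the times did not. Over both times Krt14, the partner of Krt5, differed by -0.08 ± 0.09, Krt8 by -0.13 ± 0.19 and Krt13 by -0.30 ± 0.21, none past the threshold. The Krt14 mean joined opposite signs, 0.35 at 24 h and -0.52 at 48 h. At 48 h alone 2 of the 12 keratins were lower, Krt5 and Krt14 (limma, adjusted p = 0.023 for Krt14). Of 18 squamous differentiation genes 2 were higher, Asprv1 and the transglutaminase Tgm1 (1.25), and 1 was lower, Sprr3 (-0.31), which lay near or below the lower quartile. This list and the next stand against 6.27% higher and 5.17% lower over all probe sets. Of 15 laminin-332 and integrin genes 1 was higher, Lama3 (1.15), a chain of the basement membrane laminin of epithelia, and Lama5 (-0.53) and Itga7 (-0.35) were lower, both calls being lost without NBTII-FGFR1 24 h replicate 2, NBTII-FGFR1 48 h replicate 1, NBTII 24 h replicate 1 or NBTII 48 h replicate 1. A second Lama5 probe set (1377428_at) differed by -0.13 and the 2 other Itga7 probe sets by -0.11 and -0.07, none past the threshold.

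Actin and focal adhesion genes were higher where they differed, 9 of 39 measured members against 0 lower, with a median difference of 0.18. Over all probe sets 6.27% were higher and 5.17% lower. Tmsb4x, the gene of thymosin beta 4, which binds actin monomers, read 10.83 and 11.08 at 24 h and 10.43 and 10.40 at 48 h in NBTII, against 11.70 and 11.96 and 12.06 and 11.95 in NBTII-FGFR1. The NBTII-FGFR1 arrays were higher by 1.23 ± 0.10 (adjusted p = 7.18e-06), with no overlap. Rhob, a small GTPase gene, was higher by 1.71, Rhoc by 0.43, and the Arp2/3 subunits Arpc1b and Arpc2 by 0.36 and 0.33. The others were Pdlim7 (0.64), the filament-severing Gsn (0.58), the membrane linker Msn (0.53) and Cnn3 (0.50). The count was 5 without NBTII-FGFR1 24 h replicate 2 or without NBTII-FGFR1 48 h replicate 1.

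The largest negative difference belonged to Igfbp5, which encodes a secreted binding protein of insulin-like growth factors. Igfbp5 read 8.65 and 5.72 at 24 h and 9.89 and 7.87 at 48 h in NBTII, against 4.04 and 4.54 and 4.53 and 4.36 in NBTII-FGFR1. The NBTII-FGFR1 arrays were all near the lower quartile, whereas the 2 NBTII arrays of each time lay far apart, so the difference of -3.67 ± 0.65 is a lower bound with a large error (adjusted p = 0.00290). Its 2 other probe sets were lower too (-0.91 and -1.78). In the IGF axis list, Igfbp5 and Igfbp6 (-0.31) were lower among 14 measured members and 0 were higher. Over all probe sets 5.17% were lower and 6.27% higher. The Igfbp6 call held only without NBTII 48 h replicate 2 among the 8 arrays left out in turn. A second Igfbp6 probe set (1387625_at) differed by -0.06 and did not pass the threshold.

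Fxyd2, the gene of the gamma subunit of the sodium pump, read 8.06 and 7.08 at 24 h and 8.81 and 7.01 at 48 h in NBTII, against 4.36 and 5.14 and 4.77 and 4.91 in NBTII-FGFR1. In NBTII-FGFR1 1 array was below the lower quartile and 3 were above it, the NBTII arrays were spread, and the difference was -2.95 ± 0.46 (adjusted p = 0.00126). Slc1a3, a glutamate transporter gene, read 8.45 and 7.46 at 24 h and 8.90 and 7.93 at 48 h in NBTII, against 7.29 and 6.44 and 5.70 and 5.56 in NBTII-FGFR1. The lines nearly met at 24 h and were far apart at 48 h (difference -1.94 ± 0.24). Of the 2 other Slc1a3 probe sets 1 was lower (-1.44) and 1 was higher (0.35), so its probe sets disagree. Crispld2, the gene of a secreted protein, differed by -1.43 ± 0.24, and Sgk3, the gene of a kinase in the PI3K pathway, read 8.41 and 8.46 and 8.25 and 8.48 in NBTII at 24 and 48 h, against 7.78 and 7.30 and 6.51 and 6.88 in NBTII-FGFR1 (difference -1.28 ± 0.15). The others of the 12 most negative were Nrep (-1.55 ± 0.45), Ccnq (-1.40 ± 0.24), Fam13c (-1.30 ± 0.24), Upk3bl1 (-1.14 ± 0.31), Ldb3 (-1.14 ± 0.18) and the histone gene H3c1 (-1.08 ± 0.22), beside the dimmer Sparc probe set. Nrep lost its call on leaving out any array but NBTII-FGFR1 24 h replicate 1, and Upk3bl1 on leaving out any but that array and NBTII 48 h replicate 2.

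Genes of cell division were lower where they differed. Of 27 measured DNA replication genes 15 were lower and 0 higher (median -0.39), and of 21 mitosis genes 9 were lower and 0 higher (median -0.32). Over all probe sets 5.17% were lower and 6.27% higher, with a median of -0.05. In bulk RNA, fewer dividing cells and less of these transcripts per cell cannot be told apart. Mcm6 and Mcm5 encode subunits of the replicative helicase. Mcm6 read 9.66 and 9.998 at 24 h and 9.62 and 9.31 at 48 h in NBTII, against 9.45 and 9.38 and 8.13 and 8.25 in NBTII-FGFR1, a difference of -0.85 ± 0.13 (adjusted p = 0.00138). Mcm5 read 10.15 and 10.02 at 24 h and 9.76 and 9.46 at 48 h in NBTII, against 9.68 and 9.70 and 8.16 and 8.46 in NBTII-FGFR1, a difference of -0.85 ± 0.13, and in both genes the 48 h NBTII-FGFR1 arrays were clearly the lowest. Lower too were Mcm2 (-0.67), Mcm3 (-0.49), Mcm4 (-0.39), Mcm7 (-0.52), the sliding clamp Pcna (-0.37), the uracil-removing enzymes Ung (-0.71) and Dut (-0.57), the S-phase cyclin Ccne1 (-0.51) and Tk1 (-0.40). Ccnb2, a mitotic cyclin gene, read 10.06 and 9.92 at 24 h and 9.93 and 9.86 at 48 h in NBTII, against 9.997 and 9.93 and 8.81 and 8.86 in NBTII-FGFR1. The 24 h arrays of the lines overlapped and the 48 h arrays were about 1 apart, which gave a mean of -0.54 ± 0.09 (adjusted p = 0.00184). Ccnb1 (-0.51), Kif20a (-0.52), the securin gene Pttg1 (-0.50) and Aurkb (-0.39) were also lower.

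The mean levels of both lists lay farther apart at 48 h than at 24 h. The mean level of the 27 replication genes was 9.11 and 9.18 in NBTII and 9.08 and 9.03 in NBTII-FGFR1 at 24 h, and 8.90 and 8.80 against 8.09 and 8.23 at 48 h. For the 21 mitosis genes it was 9.32 and 9.18 against 9.40 and 9.32 at 24 h, and 9.27 and 9.31 against 8.47 and 8.59 at 48 h. Their median difference was 0.12 at 24 h and -0.73 at 48 h, so for this list the average over the times joined opposite signs. At 48 h alone, 20 of the 27 and 17 of the 21 were lower, against 3.71% of all probe sets. At 24 h alone 0 of either list passed, as did 0 of all probe sets in the lower direction, so the 24 h count says nothing about these lists. For no gene of either list did the test of the 48 h against the 24 h difference pass. Without NBTII 48 h replicate 1, 9 replication genes were lower over 24 and 48 h. The mitosis count was 2 without NBTII-FGFR1 48 h replicate 1, 3 without NBTII-FGFR1 24 h replicate 2 or NBTII 48 h replicate 1, and 4 without NBTII 24 h replicate 1 or NBTII 48 h replicate 2.

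Metabolic and stress genes differed in both directions. Of 34 oxidative stress and xenobiotic genes 7 were higher and 4 lower, against 6.27% and 5.17% over all probe sets. Higher were the drug exporter Abcb1a (1.35), catalase Cat (1.09), heme oxygenase Hmox1 (1.04), Gstm1 (0.67), Akr1b8 (0.62), Txnrd1 (0.56) and the glutathione synthesis subunit Gclm (0.55), and lower were Mgst2 (-0.56), Prdx6 (-0.46), Cyp1b1 (-0.32) and Gsr (-0.28). Of 26 glycolysis and hypoxia genes 6 were higher, among them the glucose transporter Slc2a1 (0.54) and Hk2 (0.52), and Egln1 was lower (-0.42), with 3 higher without NBTII-FGFR1 24 h replicate 2, NBTII-FGFR1 48 h replicate 1 or NBTII 24 h replicate 2. Of 25 ribosome biogenesis genes 6 were lower, including fibrillarin Fbl (-0.51) and Nme1 (-0.61), and the polyamine synthesis gene Odc1 was higher (0.96). The list of cholesterol synthesis and uptake had 0 of 25 members past the threshold. The 4 higher members of the 26 unfolded protein and amino acid response genes, Chac1, Dnajb9, Asns and Dnajc3, fell to 0 or 1 without NBTII-FGFR1 24 h replicate 2, NBTII-FGFR1 48 h replicate 1, NBTII-FGFR1 48 h replicate 2, NBTII 24 h replicate 1, NBTII 24 h replicate 2 or NBTII 48 h replicate 1. In the remaining lists 1 of 22 WNT and Notch genes (Axin2, 1.30) and 1 of 19 cell cycle inhibitors and p53 targets (Mdm2, 0.72) were higher, and Cdkn2c (-0.47), Elf3 (-0.50), Bst2 (-0.77) and Psmb10 (-0.59) were lower while B2m was higher (0.41). Of these, Mdm2 kept its call with each of the 8 arrays left out, and the others lost it in at least 2 of those fits.

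**Figure D2:**
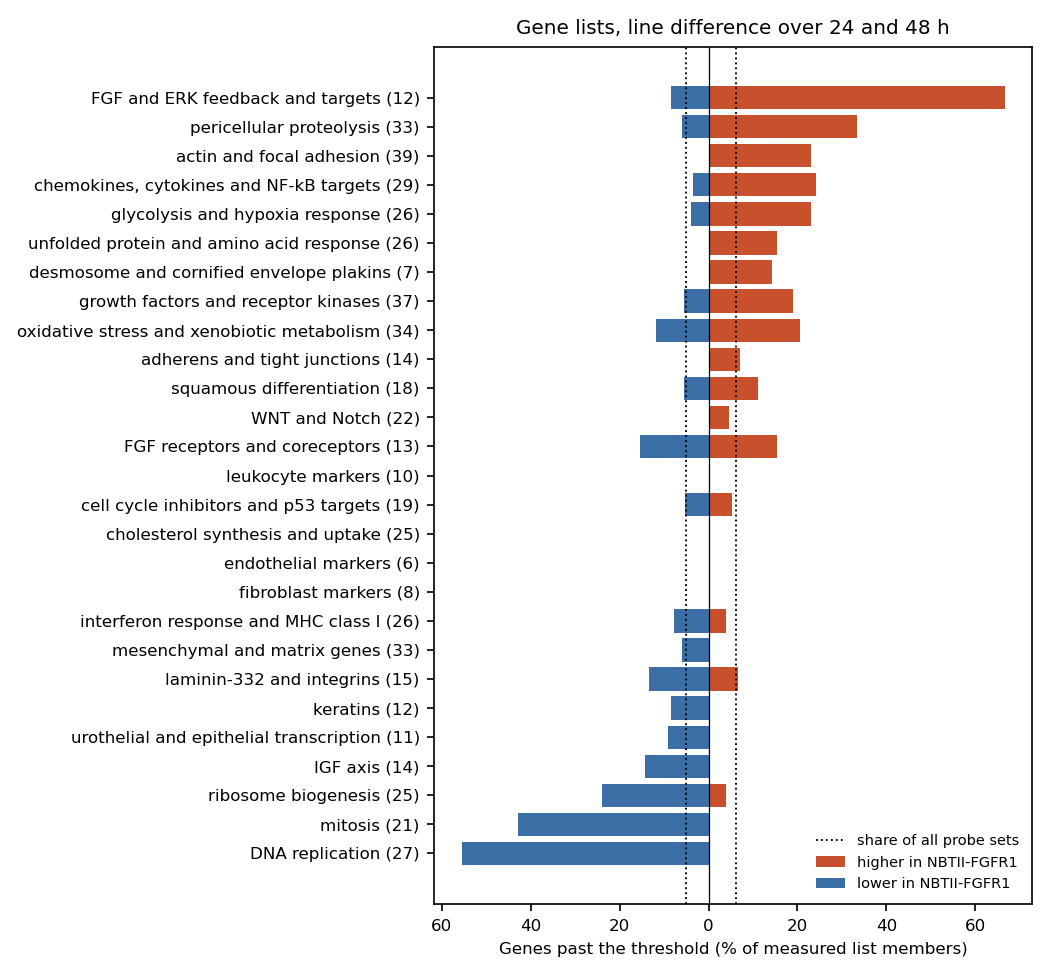
Share of the measured members of each of the 27 gene lists (number measured in brackets) that were higher (orange, to the right) or lower (blue, to the left) in NBTII-FGFR1 over 24 and 48 h, in percent. Dotted lines mark the shares over all probe sets, 6.27% higher and 5.17% lower; FGF and ERK feedback genes reach farthest right with 8 of 12, and DNA replication genes farthest left with 15 of 27.

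The line difference was larger at 48 h than at 24 h for most of the probe sets that differed. At 48 h alone 1341 probe sets passed (8.45%), 753 higher (4.75%) and 588 lower (3.71%), and at 24 h alone 16 passed (0.101%), all higher, with 2216 at an unadjusted p under 0.05. Of the 16, 14 were among the 1341. The 24 h count depended on the libraries in the fit: it was 170 without the libraries labelled NBTII-FGFR1 0 h replicate 1 and 2 h replicate 1, 448 with only the 8 arrays of 24 and 48 h, 0 without NBTII-FGFR1 24 h replicate 2, and 1 without either NBTII array of 24 h. It was 4 or 5 without any 1 array of 48 h. The 48 h count was 252 without NBTII-FGFR1 48 h replicate 1, 282 without NBTII 48 h replicate 1, 568 without NBTII-FGFR1 48 h replicate 2 and 637 without NBTII 48 h replicate 2. Of the 1815 probe sets that differed over both times, 98.7% had the same sign at 24 and 48 h, against 69.2% of all probe sets. The difference was the larger at 48 h in 77.4% of them, against 55.4% of all, with a median size of 0.37 at 24 h and 0.58 at 48 h. Since both times entered the average that chose these probe sets, these shares are a description.

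The genes called at 24 h alone were Mmp10, Mmp3, Capn8, Spry2, Tmsb4x, Sdc1 and Tgfa, described above, together with Fgf13, Pfn2 at both of its probe sets, Pdpn, Unc13d, Tspan12 and Atp9a, which are named here after their values had been seen. 1 further probe set had no symbol and 1 had several. Pdpn encodes podoplanin, a membrane mucin found at the leading edge of invading carcinoma cells. It read 8.66 and 8.99 at 24 h and 8.24 and 8.70 at 48 h in the NBTII arrays, against 10.003 and 9.79 at 24 h and 9.92 and 9.84 at 48 h in the NBTII-FGFR1 arrays. The 4 NBTII-FGFR1 arrays lay close together above all NBTII arrays, with a difference of 1.24 ± 0.11 over both times (adjusted p = 3.05e-05). Pfn2, the gene of profilin 2, which binds actin monomers, was higher over both times by 1.43 ± 0.15 and 1.36 ± 0.15 at its 2 probe sets. Fgf13, the gene of an intracellular FGF homologue that binds sodium channels and not FGF receptors, read 4.10 and 3.98 at 24 h and 4.20 and 4.41 at 48 h in the NBTII arrays, against 5.46 and 5.58 at 24 h and 4.96 and 5.12 at 48 h in the NBTII-FGFR1 arrays. It was the only named gene of the 16 probe sets not called at 48 h (difference 0.74, adjusted p = 0.090), and NBTII was below the lower quartile of its arrays throughout.

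Over all probe sets the 24 h arrays of NBTII-FGFR1 were as close to each other as those of NBTII, with median gaps of 0.128 and 0.133, but they differed at probe sets called at 48 h. Over the 1341 probe sets that differed at 48 h, replicate 2 showed a median of 0.517 of the 48 h difference from the NBTII mean of 24 h, with 93.4% on the NBTII-FGFR1 side, and replicate 1 showed 0.285, with 79.9% on that side. A gap is seen in some of the named genes: Fgfr1 was 4.56 and 6.14, Mxd1 7.28 and 8.79 and Il24 5.34 and 7.27 in replicates 1 and 2. Others had little gap, Mmp3 with 10.31 and 10.49 and Pdpn with 10.003 and 9.79. The part of the Fgfr1 level in these gaps was not tested.

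A test of the change itself between the times passed at 2 probe sets (0.0126%), with 1108 at an unadjusted p under 0.05. One was Plin2 (1382680_at), the gene of a protein that coats lipid droplets, and the other carried no gene symbol (1386383_at). Plin2 read 5.22 and 5.44 at 24 h and 5.88 and 5.81 at 48 h in NBTII, against 5.38 and 6.25 and 9.19 and 8.71 in NBTII-FGFR1. At this probe set it was level between the lines at 24 h apart from 1 array, and at 48 h higher by 3.11, a change of the line difference of 2.62 (adjusted p = 0.0065). Its call was lost with only the 8 arrays in the fit, and without NBTII-FGFR1 48 h replicate 1, NBTII 24 h replicate 2 or NBTII 48 h replicate 1. A second Plin2 probe set (1390383_at) differed by 0.839 at 24 h and 2.525 at 48 h, and its change did not pass.

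**Figure D3:**
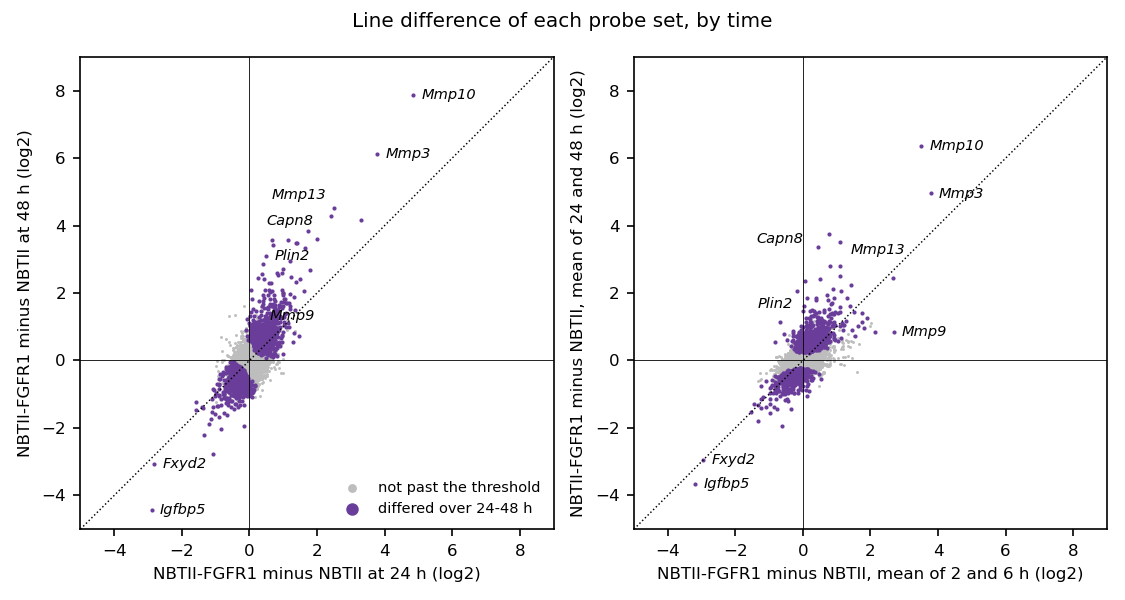
Line difference (NBTII-FGFR1 minus NBTII, log2) of each of 15866 probe sets, at 48 h against 24 h (left) and averaged over 24 and 48 h against the average of 2 and 6 h (right), with the 1815 probe sets that differed over 24 and 48 h in purple and equality as a dotted line. Mmp10 and Mmp3 lie at the upper right and Igfbp5 and Fxyd2 at the lower left of both panels, Plin2 lies above the line on the left, and Mmp9 lies below it on the right.

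Against the 8 arrays of 2 and 6 h, which are other samples, the late line difference was larger or smaller at 26 probe sets (0.164%), 16 upward (0.101%) and 10 downward (0.063%), with 1626 at an unadjusted p under 0.05. The sign of the difference at 24 to 48 h was already present at 2 to 6 h for 85.5% of the 1815 probe sets, against 67.8% of all. Capn8 read 5.69 and 5.44 at 2 h and 5.71 and 5.69 at 6 h in the NBTII arrays, against 5.05 and 5.31 and 6.59 and 7.43 in the NBTII-FGFR1 arrays. Its line difference went from 0.46 at 2 to 6 h to 3.35 at 24 to 48 h, a change of 2.89 ± 0.34 (adjusted p = 0.00241), and it was alone among the 12 largest positive genes in passing this test. Spry2 changed by 0.77 ± 0.13, Sdc1 by 0.69 ± 0.11 and Tmsb4x by 0.74 ± 0.14. These changes are against 2 and 6 h and not against 0 h. At 0 h there was 1 NBTII array, and the first NBTII-FGFR1 value given is of replicate 1, whose Fgfr1 read 3.57. A gap at 0 h can thus not be assigned to the lines. Spry2 then read 4.45 in NBTII, against 6.07 and 6.30 in NBTII-FGFR1. Tmsb4x then lay the other way, with 11.144 against 10.275 and 10.612. Sdc1 read 12.19 and 12.25 at 2 h and 12.42 and 12.53 at 6 h in the NBTII arrays, against 12.37 and 12.45 and 12.71 and 12.65 in the NBTII-FGFR1 arrays, so the lines lay close at these times. Arrays of both lines were lower at 24 and 48 h than at 2 and 6 h. At 0 h Sdc1 read 10.942 in the 1 NBTII array, against 11.395 and 11.491 in NBTII-FGFR1, so the NBTII level of 24 and 48 h was near that of 0 h. Cyp3a9, a cytochrome P450 gene, went from a line difference of -0.83 to one of 0.54 and Rilpl1 from -0.56 to 0.77, so that both changed sign. At 0 h Cyp3a9 read 8.65 in NBTII, against 9.47 and 9.55 in NBTII-FGFR1, and Rilpl1 6.84 against 6.74 and 6.76. A second Rilpl1 probe set (1386645_at) had a late difference of 0.32 that did not pass the threshold (limma, adjusted p = 0.085).

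Mmp9 moved the other way. It read 5.08 and 4.40 at 2 h and 5.27 and 4.53 at 6 h in the NBTII arrays, against 6.56 and 6.35 and 8.75 and 8.35 in the NBTII-FGFR1 arrays, a line difference of 2.69 that came down to 0.84 at 24 to 48 h, a change of -1.84 ± 0.29 (adjusted p = 0.0231). Mmp9 read 3.83 and 3.74 at 24 h and 3.80 and 3.72 at 48 h in NBTII, all below the lower quartile. In NBTII-FGFR1 it read 4.07 and 4.20 at 24 h, little above NBTII, and 5.59 and 4.60 at 48 h. At 2 to 6 h Mmp10, Mmp3 and Mmp13 had line differences of 3.51, 3.78 and 1.11, all below those of 24 to 48 h and not past the test of the change. Bcl2l11, which encodes the cell death protein BIM, changed by -1.93 ± 0.29, and Fosb, an AP-1 subunit gene, by -1.20 ± 0.20. Their early differences were largest at 2 h, where Bcl2l11 read 6.90 and 7.11 in NBTII and 9.95 and 9.004 in NBTII-FGFR1. At 24 and 48 h Fosb lay below the lower quartile in 3 NBTII-FGFR1 and all 4 NBTII arrays. Its late signal may thus be background in both lines. Cavin3, a component of caveolae, changed by -1.07 ± 0.15. Among the 26 probe sets that passed, no other probe set of Bcl2l11, Mmp9, Sdc1, Plin2 or Rilpl1 was present. Without the libraries labelled NBTII-FGFR1 0 h replicate 1 and 2 h replicate 1 the count was 20, and 11 of these were among the 26. The changes were then of similar size for Mmp9 (-1.79), Sdc1 (0.68), Spry2 (0.72), Tmsb4x (0.68), Plin2 (1.37) and Fosb (-1.16) but missed the threshold (adjusted p = 0.052 for the first 4, 0.053 and 0.061), while Capn8, Cyp3a9, Rilpl1, Bcl2l11 and Cavin3 passed. With each of the 8 arrays of 24 and 48 h left out in turn, Capn8, Cyp3a9 and Rilpl1 passed in all 8 fits and Cavin3 in all but the one without NBTII 48 h replicate 1. Spry2, Tmsb4x and Fosb lost the call in 7 of the 8 fits, all but that without NBTII-FGFR1 24 h replicate 1, and Sdc1 in 6, all but those without that array or NBTII 24 h replicate 1. Bcl2l11 lost it in 5, all but those without NBTII-FGFR1 24 h replicate 1 or 2 or NBTII 24 h replicate 2, Plin2 in 5, without any 1 of the NBTII arrays or NBTII-FGFR1 48 h replicate 1, and Mmp9 in 4, without any 1 of the NBTII arrays. Leaving out 1 array of 24 or 48 h gave 5 to 12 except without NBTII-FGFR1 24 h replicate 1, where it was 52.

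**Figure D4:**
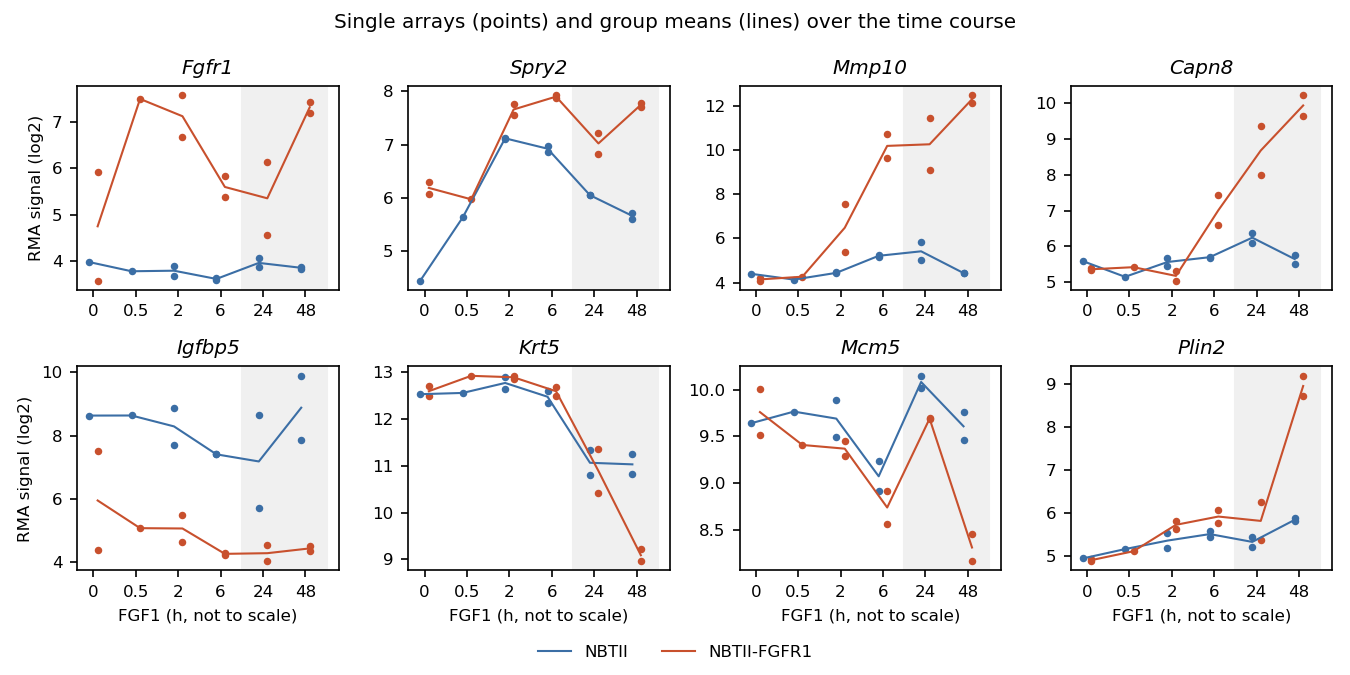
RMA signal (log2, y axis) of 8 genes in all 21 arrays over the hours of FGF1 (x axis, not to scale), with points for arrays, lines for group means, blue for NBTII and orange for NBTII-FGFR1, and the 24 and 48 h arrays shaded. Capn8 separates the lines from 6 h on, Igfbp5 is lower in NBTII-FGFR1 throughout, though 1 of its 0 h arrays comes near NBTII, Krt5 parts at 48 h, Mcm5 is farther apart at 48 h than at 24 h, and Plin2 reaches 9.19 and 8.71 in NBTII-FGFR1 at 48 h.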

How the data were processed

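The samples were 21 Affymetrix rat arrays in 12 groups of line and time, 9 of 2 arrays and 3 of 1. The authors deposited log2 signals per probe set, and the submitters' processing notes name RMA (version not given in the sources used here). RMA subtracts background, makes the arrays' distributions alike and summarises the probes of a set, which compresses differences at low signal. The number of arrays limits the precision. Of 15923 probe sets, 57 controls were dropped and 15866 tested. The platform annotation gave 1 symbol to 12783 of these, several to 312 and none to 2771, with 10411 symbols in all. Checked against RefSeq by gene ID, 0 symbols needed updating.

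From these values limma 3.58.1 in R 4.3.3 fitted the group means of all 21 arrays, with eBayes and Benjamini-Hochberg adjustment over the 15866 and a threshold of 0.05, two-sided. The residual degrees of freedom were 9. Errors after a difference are standard errors of the fit. Tables and plots were made with Python 3.11.15, pandas 2.3.3, numpy 2.4.6 and matplotlib 3.10.9. A gene in a list is its probe set with the highest mean, and the 27 lists carry no set test. Dimmer probe sets of Ccnb1 (-0.253), Col6a2 (-0.184), Egln1 (-0.169) and Ldb3 (-0.157 and -0.52) did not pass the threshold over 24 and 48 h. The named genes were 26 fixed ones, of which Snai2 was not measured under a single symbol, the 12 largest differences in each direction among called genes whose lines do not overlap, up to 4 with the smallest p per list, and up to 4 per direction for each comparison between times. Other list members are named as the list's counts require, and genes named outside the rule are marked. The members and lists were chosen with earlier results of these data known. The alternatives were a filter on low values, the replicate block, fits of the compared arrays alone, repeated quantile normalization, trended and robust eBayes, array weights, a fold threshold, fits without the libraries labelled NBTII-FGFR1 0 h replicate 1 and 2 h replicate 1, and each of the 8 arrays left out. The fit was tested on simulated data: of 200 planted differences over 24 and 48 h among 15866 probe sets, it recovered 70% of those of 0.5 and 95% of those of 1, with 4.62% false among 173 calls. The simulated noise was independent between arrays, so 4.62% is not an estimate for the calls from the real arrays.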

Additional observations from a re-analysis of the deposited data

Results flagged for a closer look

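Of the 26 probe sets whose line difference of 24 to 48 h departed from that of 2 to 6 h by the test of the difference itself, the rule named 11, each of a different gene (limma, all 21 arrays, adjusted over 15866 probe sets). It was larger by 2.89 for Capn8 (adjusted p = 0.0024), 1.41 for Plin2 (0.023), 1.37 for Cyp3a9 (0.0024), 1.33 for Rilpl1 (0.0057), 0.77 for Spry2 (0.027), 0.74 for Tmsb4x (0.045) and 0.69 for Sdc1 (0.023). In the other direction it changed by -1.93 for Bcl2l11 (adjusted p = 0.021), -1.84 for Mmp9 (0.023), -1.2 for Fosb (0.027) and -1.07 for Cavin3 (0.0098). Other probe sets of Bcl2l11, Mmp9, Sdc1, Plin2 and Rilpl1 did not pass. Between 24 and 48 h the line difference of Plin2 (1382680_at) grew by 2.62 (limma, adjusted p = 0.0065), and its second probe set did not pass this test. No group had 4 or more arrays, so no array could be tested for lying far from its group.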

How the results depend on the processing

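Over 24 and 48 h the 1815 calls became 3172 with only the 8 arrays in the fit, 3497 with array weights, 128 with a difference of at least 1 required, and 795 to 1518 with 1 array left out. Under the filter on low values, the replicate block, repeated quantile normalization, trended and robust eBayes and without the 2 libraries labelled NBTII-FGFR1 0 h replicate 1 and 2 h replicate 1 they ranged from 1464 to 2203. The 16 calls of 24 h became 32 with the replicate block, 448 with only the compared arrays, 7 after quantile normalization, 10 with trended and robust eBayes, 177 with array weights, 170 without the 2 libraries, and 0 to 20 with 1 array left out. The 1341 calls of 48 h became 2328 with only the compared arrays, 3091 with array weights and 252 to 1287 with 1 array left out. The 2 calls between the times became 0 under the filter or with only the compared arrays, 7 after quantile normalization, 86 with array weights and 1 to 8 with 1 array left out. The 26 against 2 to 6 h became 16 under the filter and 5 to 52 with 1 array left out. The cause of these shifts was not tested. Same-numbered arrays did not deviate together in every pair of groups (r of the deviations -0.02 to 0.23 over 6 pairs), so the numbers were not taken to pair the arrays. Only the groups of 24 and 48 h were compared this way. With the number as a block, the call for Vim was gained (adjusted p = 0.032). Among differences that did not pass the threshold, Fgfr4 (-0.04) turned to 0.037 after quantile normalization. With 1 array left out it ranged from -0.099 to 0.013, Fn1 from -0.309 to 0.021, Krt8 from -0.288 to 0.032 and Krt14 from -0.169 to 0.004. The other settings of the named genes kept direction and call in 1458 cases, lost the call in 168 and gained it in 6. With 2 arrays per group and no detection calls, small differences and those of dim probe sets are the least certain.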

Other observations

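Some of the 26 probe sets whose line difference departed from that of 2 to 6 h fell outside the rule for named genes, and the following were picked after their values had been seen. Tp63, the gene of the basal epithelial transcription factor p63, read 6.98 and 7.02 at 24 h and 6.97 and 7.13 at 48 h in NBTII, against 6.68 and 6.64 at 24 h and 6.18 and 6.29 at 48 h in NBTII-FGFR1. Its NBTII-FGFR1 arrays were all below the NBTII arrays, by -0.58 ± 0.10 on average (limma, adjusted p = 0.00258), whereas at 2 to 6 h the difference was 0.26. The change of -0.84 ± 0.14 passed (adjusted p = 0.0266), but not without the libraries labelled NBTII-FGFR1 0 h replicate 1 and 2 h replicate 1 (0.0604). Fat2, the gene of a large atypical cadherin of squamous epithelium, had a late difference of -0.76 ± 0.10 and an early one of 0.13, and the change of -0.90 ± 0.15 (adjusted p = 0.0231) likewise missed the threshold without those libraries (0.0515).

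Rasa1, which encodes a GTPase-activating protein that turns Ras off, read 8.24 and 8.31 at 24 h and 8.38 and 8.32 at 48 h in NBTII, against 8.92 and 9.50 at 24 h and 10.13 and 10.03 at 48 h in NBTII-FGFR1. The lines did not overlap, and the late difference of 1.33 ± 0.12 stood against 0.24 at 2 to 6 h (limma, adjusted p of the change 0.0231, and 0.0515 without those libraries). For Pdpn the early difference was 0.22 and the change 1.02 ± 0.16, a call kept without them (adjusted p = 0.0229).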
